A study of Arabidopsis thaliana with 9 samples.

Results

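Transcripts of 33 plastid-encoded genes for the photosynthetic apparatus were followed across 9 arrays of Arabidopsis thaliana. The genes were chosen by name and genome, with no cut on their measured values, though earlier results of these data were known. A gene was included where a probe set lists it as its 1 gene, it lies on the plastid genome, and its symbol begins with psa, psb or pet, or is atpA, atpB, atpE, atpF, atpH, atpI or rbcL. They comprise 5 genes of photosystem I, 15 of photosystem II, 6 of the cytochrome b6f complex, 6 of the plastid ATP synthase and rbcL. Each has 1 probe set, out of 22746 probe sets tested, which list 13356 genes singly, and out of 69 plastid-encoded genes measured in all.

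All arrays were hybridised with total RNA from the above-ground part of 8-week-old plants of the Col-0 background, grown in a greenhouse with equal day and night. The sample titles name Col-0 for the wild-type and variegated plants, and those of the stunted plants do not repeat it. Wild type, variegated plants of an msh1 RNAi transgenic line and stunted plants of an msh1 RNAi transgenic line were each measured on 3 arrays, labelled as biological replicates. MSH1 is a nuclear gene for a MutS homologue that acts on organelle DNA. The labels give neither the promoter of the RNAi construct nor the number of independent lines. MSH1 has no listed probe set, so suppression of the target itself was not measured. A variegated plant holds green and pale sectors, and the above-ground part was not split into sectors per the labels. Differences in the share of green cells and in the RNA of each cell cannot be told apart in such samples.

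The thylakoid membrane carries photosystem II, which splits water, the cytochrome b6f complex, which passes electrons on and pumps protons, photosystem I, which reduces ferredoxin, and the ATP synthase, which uses the proton gradient. Each complex is assembled from subunits made in the plastid and subunits imported from the cytosol, and rbcL gives the large subunit of Rubisco, the enzyme that fixes carbon dioxide. Most plastid genes are transcribed in polycistronic units and then cut into smaller RNAs, so neighbours on 1 unit are not independent measurements. Plastid mRNAs are known to lack stable poly(A) tails. The labels name only the standard protocol of the array's maker for labelling, without its priming, and a probe set cannot tell a plastid transcript from a nuclear or mitochondrial copy of the same sequence.

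The values are log2 expression levels, so a difference of 1 is a 2-fold change. Array medians lay between 3.37 and 3.43 and single values between 1.98 and 13.10. Of the 33 genes, 25 had a mean over 7, while atpI, petG and petD lay below the mean of the array medians and may be close to the floor of the scale. Levels of different probe sets are not compared with each other. Changes were tested with limma over all 22746 probe sets with Benjamini-Hochberg adjustment, and an adjusted p under 0.05 passed. Of the 10 green leaf markers and the 8 flower and silique markers listed for a check of the tissue, none was matched to a probe set of 1 gene. RCA, the activase of Rubisco, read 12.52 to 13.02 on all 9 arrays.

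Group means of the photosynthesis transcripts lay on both sides of wild type in variegated plants and mostly above it in stunted plants, and replicate arrays of a group differed widely. In variegated plants 18 of the 33 genes were above and 15 below wild type, with a median change of 0.03 against 0.0144 over all probe sets. Single arrays set this tally: 9 were above without wild-type replicate 3 (median -0.12) and 24 without variegated replicate 1 (median 0.13). In stunted plants 25 were above and 8 below, with a median of 0.22 against 0.0053 over all probe sets. When 1 wild-type array was omitted this median came to 0.11 (replicate 3) or 0.40 (replicate 1). Omission of stunted replicate 3 gave 0.08 and of stunted replicate 1 gave 0.44. Against variegated plants, 27 of the 33 were higher in stunted plants, with a median of 0.21 against -0.0112. Without stunted replicate 3 only 14 of 33 were higher (median -0.01), and without variegated replicate 1 the median was 0.07. The stunted and variegated comparisons share the wild-type arrays. The heat map of all 33 genes shows these values array by array.

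**Figure D1:**
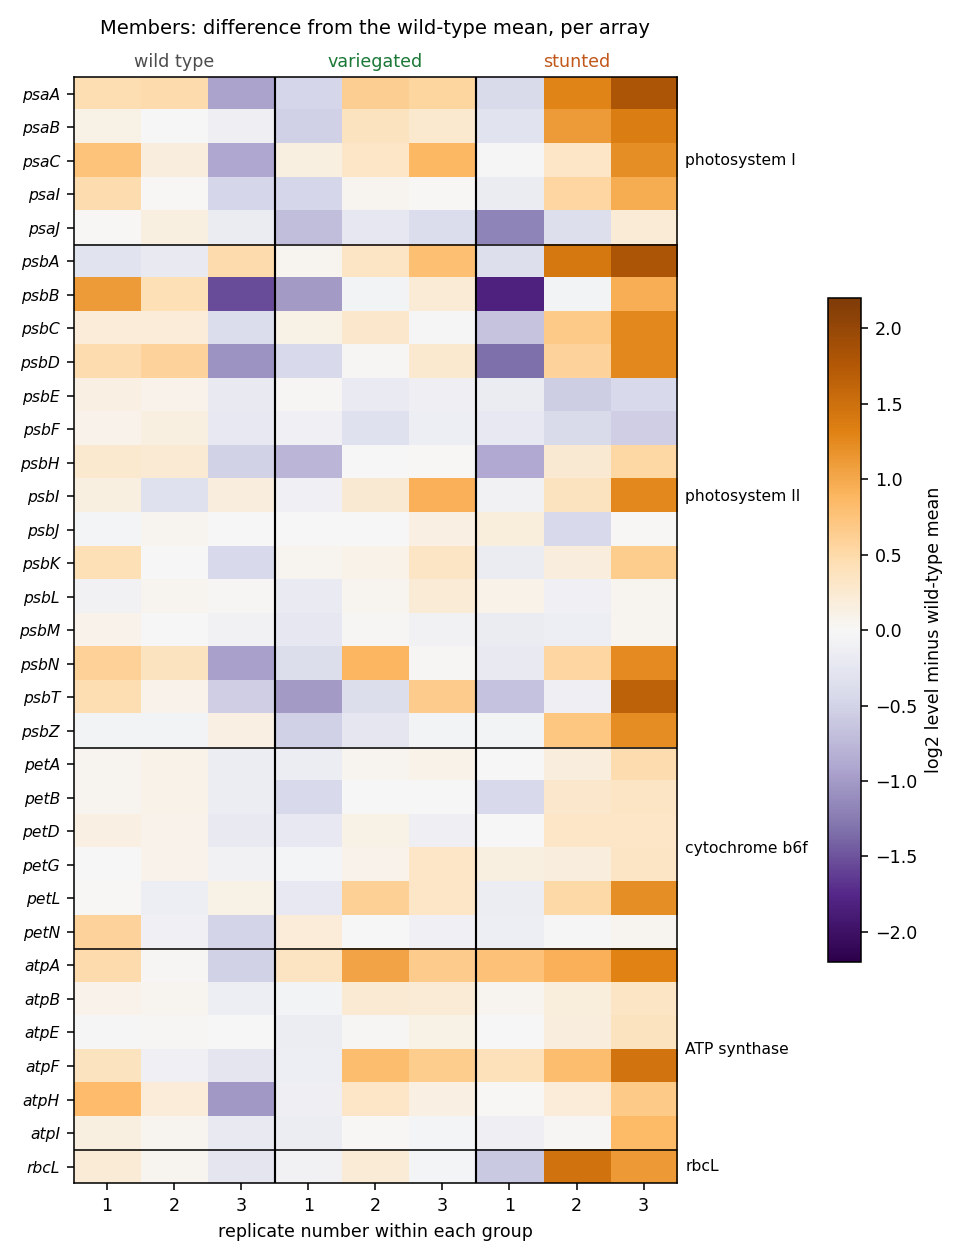
Each row is 1 of the 33 genes, grouped by complex, and each column 1 array; the colour is the log2 level minus the mean of the 3 wild-type arrays of that gene. Wild-type replicate 3, variegated replicate 1 and stunted replicate 1 are mostly purple (low), and stunted replicate 3 is mostly orange (high), while psbE, psbF, psbL and psbJ go another way in the stunted arrays.

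Few of these changes passed the test. For variegated against wild type 0 of 33 passed in limma, where 0.444% of all probe sets did, the smallest adjusted p was 0.342 for atpA, and 1 gene had an unadjusted p under 0.05, as did 11.6% of all probe sets. For stunted against wild type 1 of 33 passed, or 3.03%, where 9.66% of all probe sets did (4.91% higher and 4.75% lower), and 5 had an unadjusted p under 0.05, as did 22.5% of all probe sets. For stunted against variegated 0 of 33 passed, where 1.74% of all probe sets did (0.87% in each direction), the smallest adjusted p was 0.143 for psbZ, and 2 genes had an unadjusted p under 0.05, as did 15.4% of all probe sets. The median standard error of a change was 0.29 for the 33 genes against 0.10 for all probe sets. A missed threshold therefore leaves wide limits: the 95% interval stayed within 2-fold in either direction for 18 of 33 genes in variegated plants, 15 in stunted plants and 18 between the mutants. Of all 22746 probe sets it did so for 22115, 21164 and 21791 in the same order. The plot of changes with their intervals gives all 99 values.

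**Figure D2:**
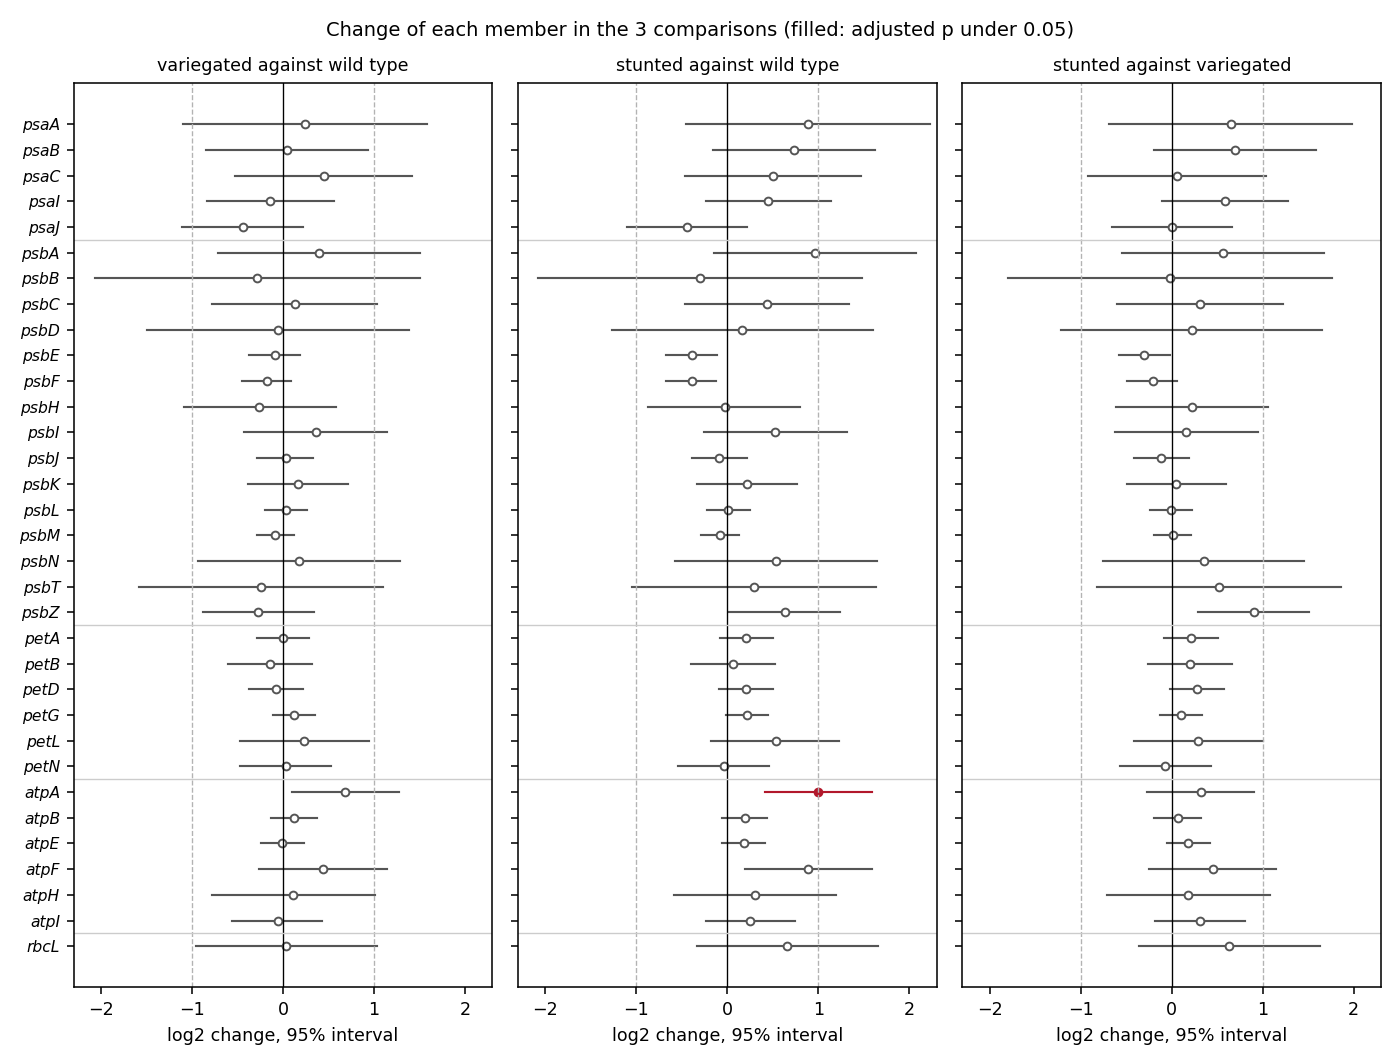
Points are the log2 change of each gene in the 3 comparisons, bars the 95% interval from limma, and dashed lines mark 2-fold. Only atpA in stunted against wild type (filled) passed the test, and in both comparisons with wild type the intervals of psbB, psbD and psbT reach past 2-fold on both sides, while those of psbM, psbL, atpB and atpE are narrow.

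The ATP synthase held the 1 gene that passed. atpA encodes the alpha subunit of the catalytic head. Its level was 10.47, 10.01 and 9.47 on the wild-type arrays, 10.34, 11.02 and 10.64 in variegated plants, and 10.74, 10.92 and 11.29 in stunted plants. All 3 stunted arrays lay above all wild-type arrays, and the variegated arrays overlapped both. The stunted mean was 1.00 above wild type (SE 0.26, 95% interval 0.41 to 1.59, 2.0-fold, limma adjusted p = 0.0427). The variegated mean was 0.68 above wild type (SE 0.26, adjusted p = 0.342) and the stunted mean 0.32 above the variegated one (SE 0.26, adjusted p = 0.651). The call rests on a narrow margin: it held in 8 of 20 alternative settings, with changes of 0.74 to 1.24 and adjusted p of 0.0177 to 0.158, and without single arrays it held only when wild-type replicate 1, variegated replicate 2 or stunted replicate 1 was the one left out.

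The genes transcribed with atpA read as follows. atpF, for the b subunit of the stalk that holds the head, read 8.52, 8.05 and 7.88 in wild type, 8.02, 8.96 and 8.80 in variegated and 8.56, 8.96 and 9.61 in stunted plants. The stunted arrays lay just above all wild-type arrays, by 0.89 in the mean (SE 0.31, adjusted p = 0.116). atpH, for the ring subunit that turns with proton flow, read 9.18, 8.54 and 7.32 in wild type, 8.24, 8.67 and 8.47 in variegated and 8.36, 8.55 and 9.02 in stunted plants. The wild-type arrays of atpH alone spanned 1.86, so the groups overlapped fully (change 0.30, SE 0.40, adjusted p = 0.742). atpI, for the subunit beside the ring, was dim on every array at 2.52 to 3.57.

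atpB and atpE, neighbours that encode the beta and epsilon subunits, were bright and steady. atpB read 12.83, 12.82 and 12.62 in wild type, 12.69, 12.99 and 12.97 in variegated and 12.80, 12.93 and 13.10 in stunted plants. The last of these is the highest value in the whole table, and whether the signal was near its ceiling was not tested. The stunted changes were 0.19 for atpB (SE 0.11, adjusted p = 0.377) and 0.18 for atpE (SE 0.10, adjusted p = 0.38), against 1.00 for atpA. As a complex, the 6 ATP synthase genes averaged 9.11 ± 0.34 in wild type, 9.33 ± 0.23 in variegated and 9.58 ± 0.33 in stunted plants (SD, n = 3). All 6 were above wild type in the stunted mean, by 0.18 to 1.00.

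Photosystem I genes had means of 8.93 ± 0.46 in wild type, 8.96 ± 0.37 in variegated and 9.35 ± 0.77 in stunted plants (SD, n = 3), and 0 of 5 passed in limma in any comparison, with 0 at an unadjusted p under 0.05. psaA and psaB encode the 2 large proteins that bind the reaction centre pigments, and they are transcribed together. psaB read 10.46, 10.34 and 10.22 in wild type, 9.82, 10.71 and 10.60 in variegated, and 10.04, 11.45 and 11.70 in stunted plants. psaA read 8.42, 8.46 and 7.03 in wild type, 7.49, 8.60 and 8.53 in variegated, and 7.55, 9.27 and 9.76 in stunted plants. For both genes stunted replicates 2 and 3 lay above every wild-type array and stunted replicate 1 lay below the wild-type mean. The stunted changes were 0.89 for psaA (SE 0.59, adjusted p = 0.447) and 0.73 for psaB (SE 0.39, adjusted p = 0.333).

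psaC encodes the iron-sulfur protein at the stromal side of photosystem I and lies among the ndh genes. It read 6.62, 6.03 and 4.96 in wild type, 6.02, 6.18 and 6.74 in variegated and 5.84, 6.18 and 7.09 in stunted plants. The groups overlapped, with changes of 0.45 in variegated plants (SE 0.43, adjusted p = 0.762) and 0.50 in stunted plants (SE 0.43, adjusted p = 0.58). psaI, for a small membrane subunit, changed by -0.14 in variegated and 0.45 in stunted plants.

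psaJ, another small membrane subunit, was the photosystem I gene that was lower in both mutant means. It read 11.14, 11.28 and 10.97 in wild type, 10.43, 10.89 and 10.74 in variegated and 9.95, 10.78 and 11.34 in stunted plants. All 3 variegated arrays lay below all wild-type arrays, by 0.44 in the mean (change -0.44, SE 0.29, adjusted p = 0.627), and no other of the 33 genes separated the variegated from the wild-type arrays in that direction. This is 3.03% of the genes, where 7.43% of all probe sets separated that way. No gene had all 3 variegated arrays above wild type, where 9.36% of all probe sets did. The stunted arrays of psaJ lay on both sides of the wild-type range, and that mean change was also -0.44.

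The plastid share of photosystem II was the largest group, with 15 genes averaging 8.70 ± 0.30 in wild type, 8.69 ± 0.26 in variegated and 8.86 ± 0.58 in stunted plants (SD, n = 3). psbA encodes D1, the reaction centre protein that is damaged by light and replaced continually. It read 9.57, 9.67 and 10.36 in wild type, 9.92, 10.20 and 10.66 in variegated and 9.52, 11.29 and 11.67 in stunted plants. The 3 stunted arrays included both the lowest and the highest value of all 9, so the mean change of 0.96 had an interval from -0.15 to 2.07 (SE 0.49, adjusted p = 0.299). In variegated plants the change was 0.40 (SE 0.49, adjusted p = 0.822).

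psbD, for the partner reaction centre protein D2, psbC, for the antenna protein CP43, and psbZ, for a small subunit at the antenna, share 1 unit. psbZ read 9.47, 9.46 and 9.65 in wild type, 9.01, 9.28 and 9.47 in variegated and 9.47, 10.24 and 10.75 in stunted plants. Its stunted replicates 2 and 3 lay above all other arrays and replicate 1 lay within the wild-type range. The change was 0.90 against variegated (SE 0.27, adjusted p = 0.143) and 0.63 against wild type (SE 0.27, adjusted p = 0.209). psbC read 9.64, 9.64 and 9.07 in wild type, 9.57, 9.73 and 9.43 in variegated and 8.81, 10.13 and 10.72 in stunted plants. psbD read 8.25, 8.36 and 6.73 in wild type, 7.34, 7.81 and 8.04 in variegated and 6.44, 8.35 and 9.04 in stunted plants. For psbC and psbD stunted replicate 1 was again the lowest of all 9 arrays and stunted replicate 3 the highest.

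psbE and psbF encode the alpha and beta chains of cytochrome b559, which protects the photosystem II reaction centre, and they lead a unit with psbL and psbJ. psbE read 10.43, 10.38 and 10.11 in wild type, 10.33, 10.12 and 10.20 in variegated and 10.15, 9.74 and 9.87 in stunted plants. psbF read 11.28, 11.35 and 10.98 in wild type, 11.11, 10.88 and 11.08 in variegated and 10.98, 10.79 and 10.67 in stunted plants. These were the 2 photosystem II genes with the smallest adjusted p in stunted plants, and both were lower than wild type, with groups that overlapped or met at 1 array. The change was -0.39 for psbF (SE 0.12, adjusted p = 0.0768) and -0.39 for psbE (SE 0.12, adjusted p = 0.0877). psbL changed by 0.01 and psbJ by -0.09 in stunted plants, with standard errors of 0.10 and 0.14. psbC, psbD, psbE, psbF and the psbB unit were chosen for array values after their values were seen.

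psbB, for the antenna protein CP47, opens a unit that runs on to psbT and psbH, for small photosystem II subunits, and to petB and petD. psbB read 7.81, 7.13 and 5.15 in wild type, 5.69, 6.64 and 6.92 in variegated and 4.89, 6.64 and 7.65 in stunted plants. Its 3 wild-type arrays spanned 2.67, the widest wild-type range among the 33 genes, and no difference between group means could be resolved (stunted change -0.30, interval -2.08 to 1.48). psbN, which lies on the opposite strand within this unit and is known as an assembly factor rather than a subunit, changed by 0.18 in variegated and 0.53 in stunted plants. psbK and psbI, small subunits from 1 unit, changed by 0.16 and 0.36 in variegated and by 0.22 and 0.52 in stunted plants. psbM, a small subunit at the dimer interface, read 12.66, 12.57 and 12.51 in wild type, 12.35, 12.61 and 12.51 in variegated and 12.41, 12.45 and 12.63 in stunted plants. It had the tightest values of the 33 genes, and its stunted interval ran from -0.29 to 0.13.

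The cytochrome b6f genes averaged 6.80 ± 0.15 in wild type, 6.82 ± 0.15 in variegated and 6.99 ± 0.28 in stunted plants (SD, n = 3), and 0 of 6 passed in limma in any comparison, with 0 at an unadjusted p under 0.05. petB, for cytochrome b6, read 11.89, 11.93 and 11.68 in wild type, 11.40, 11.83 and 11.83 in variegated and 11.39, 12.12 and 12.16 in stunted plants. petL, for a small subunit, read 7.84, 7.70 and 7.95 in wild type, 7.61, 8.44 and 8.14 in variegated and 7.68, 8.34 and 9.05 in stunted plants. In both genes replicate 1 of each mutant lay below the wild-type arrays and the other stunted arrays lay above them. The stunted changes were 0.06 for petB (SE 0.20, adjusted p = 0.92) and 0.53 for petL (SE 0.31, adjusted p = 0.385).

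petA, for cytochrome f, changed by 0.00 in variegated plants (SE 0.13) and 0.21 in stunted plants (SE 0.13, adjusted p = 0.402). petG, for a small subunit needed for the complex, had 3 stunted arrays above all wild-type arrays at 2.62, 2.64 and 2.80 against 2.46, 2.55 and 2.40, but both sets are near the floor. petD, for subunit IV, lay between 2.83 and 3.37 and petN, for a small subunit, between 4.17 and 5.23. Over the 33 genes, all 3 stunted arrays were above wild type for atpA, atpF and petG, which is 9.09% where 11.9% of all probe sets did so. None had all 3 stunted arrays below wild type, where 11.2% of all probe sets did. Between stunted and variegated plants no gene separated the arrays in either direction, where 8.11% of all probe sets separated upward and 9.55% downward.

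rbcL read 8.81, 8.64 and 8.32 in wild type, 8.52, 8.80 and 8.55 in variegated and 7.99, 10.06 and 9.72 in stunted plants. Wild type and variegated plants lay close together (change 0.03, SE 0.44, adjusted p = 0.991). In stunted plants 1 array lay below and 2 lay above every wild-type array, and the mean change was 0.66 (SE 0.44, interval -0.33 to 1.66, adjusted p = 0.445). The plots of single genes show this split beside that of psbA, psaB, psbC and psbZ, and the different order of psbE and psbF.

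**Figure D3:**
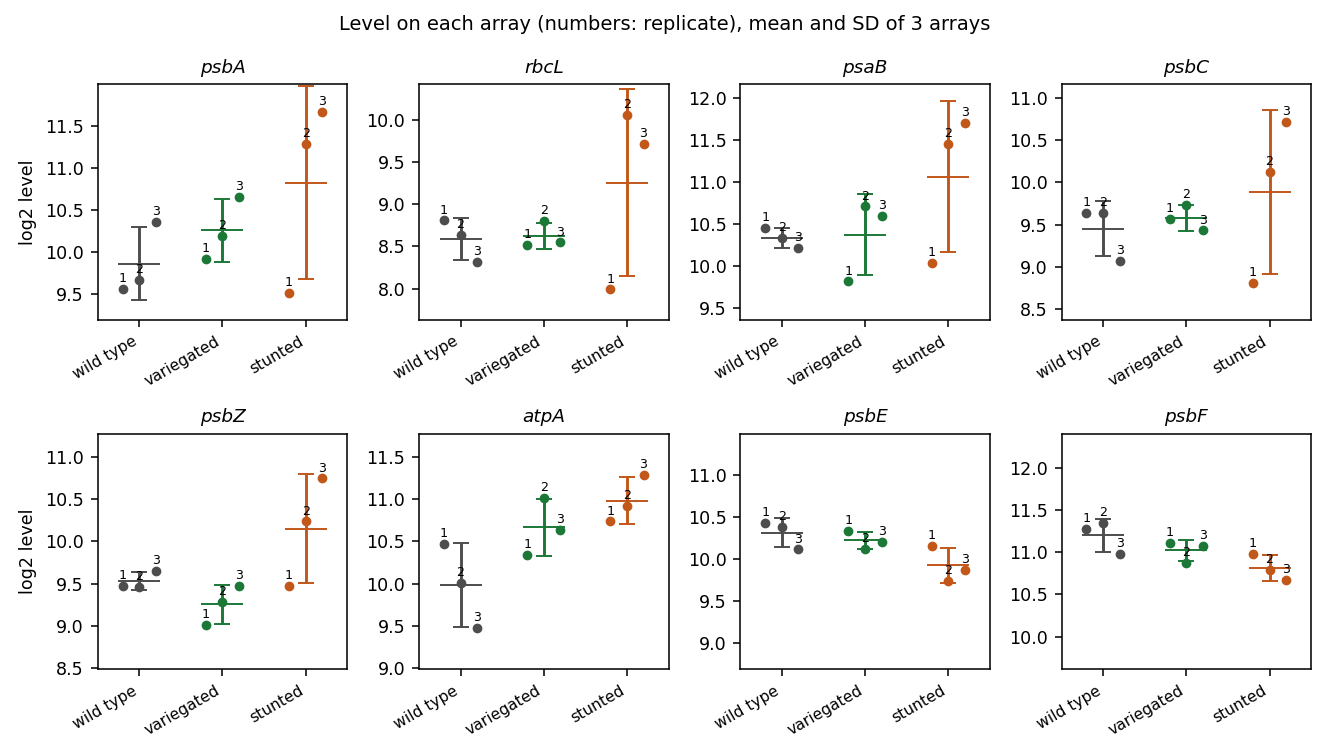
Log2 level of 8 genes on each array, with the replicate number beside each point, the group mean as a horizontal line and the SD of 3 arrays as the bar; the vertical ranges differ in position. Stunted replicate 1 is the lowest stunted array in psbA, rbcL, psaB, psbC, psbZ and atpA, and the highest in psbE and psbF.

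The comparison of complexes rests on these array means. The difference of stunted and wild-type means was 0.42 for photosystem I, 0.16 for photosystem II, 0.20 for cytochrome b6f, 0.47 for ATP synthase and 0.66 for rbcL. Those of variegated plants were 0.03, -0.01, 0.03, 0.22 and 0.03 in the same order. In each of these 5 sets the arrays of the compared groups overlapped in all 3 comparisons. Without stunted replicate 1 the stunted differences were 0.85, 0.46, 0.35, 0.61 and 1.30, and without stunted replicate 3 they were 0.08, -0.12, 0.07, 0.29 and 0.43. Without wild-type replicate 3 they were 0.16, 0.00, 0.12, 0.29 and 0.53, and without stunted replicate 2 that of rbcL was 0.26. The size of each difference, and for photosystem II its sign, therefore hung on single arrays.

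**Figure D4:**
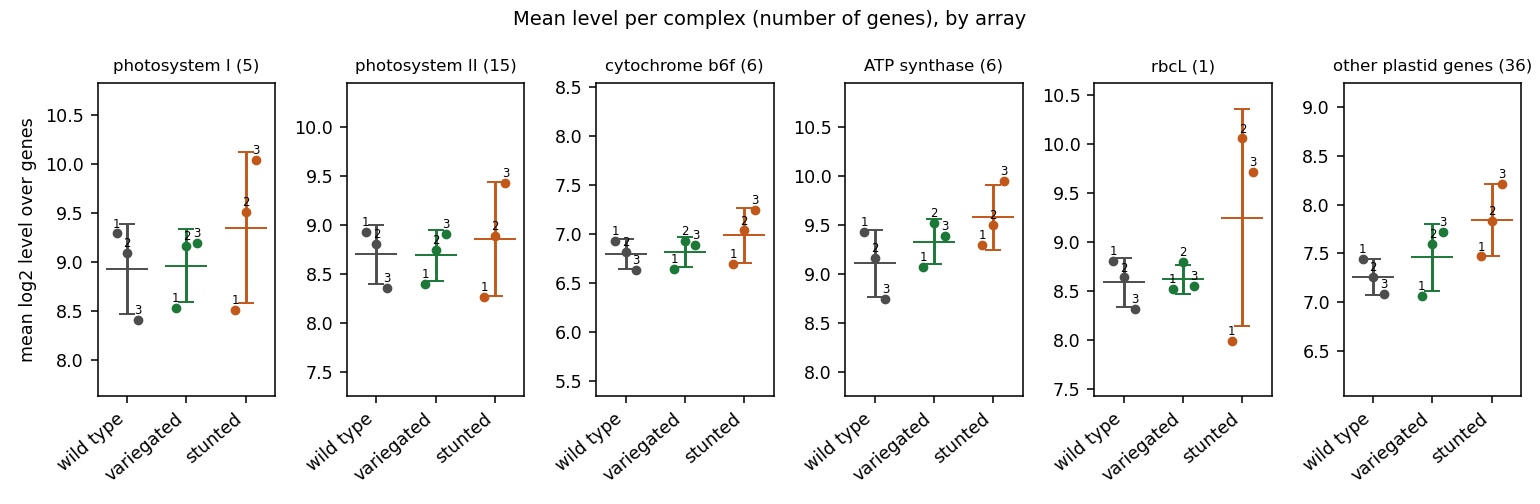
Mean log2 level over the genes of each complex on each array (numbered by replicate), with the group mean and SD of 3 arrays; every panel spans the same number of log2 units. The stunted arrays of the 5 photosynthesis panels overlap the other groups, while the 36 other plastid genes are higher on all 3 stunted arrays than on any wild-type array.

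The other 36 measured plastid-encoded genes, for ribosomal proteins, RNA polymerase, the NDH complex and others, form the nearest background on the same arrays. Their mean level was 7.26 ± 0.18 in wild type, 7.46 ± 0.34 in variegated and 7.84 ± 0.37 in stunted plants (SD, n = 3), with all stunted arrays above all wild-type arrays. In stunted plants 34 of 36 were above wild type with a median of 0.40. Of all 22746 probe sets 11728 were above, with a median of 0.0053. Of the 36 genes 8 passed, all higher, or 22.2%, where 9.66% of all probe sets passed and 4.91% passed as higher. The 8 were clpP, ycf3, rpl16, rpl20, rpoC1, rpoC2, rps2 and rps4. The mean of these 36 genes was itself 0.57 higher in stunted than in wild-type plants, so a set of genes with no change would fall by that much when read against it. Relative to that mean on each array, the 33 photosynthesis genes were 1.20 ± 0.14 in wild type, 1.04 ± 0.10 in variegated and 0.90 ± 0.15 in stunted plants. The stunted difference on this scale was -0.29, less than the shift of the reference itself. By complex it was -0.15 for photosystem I, -0.41 for photosystem II, -0.38 for cytochrome b6f, -0.10 for ATP synthase and 0.09 for rbcL. The difference between the photosynthesis genes and the other plastid genes was not tested.

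With every array centred on the other plastid genes, a setting added after the data were seen, the median change in stunted plants was -0.35 for the 33 genes and -0.568 for all probe sets. psaJ, psbF, psbE and psbB then passed as lower, or 12.1% of the 33 genes, where 14.6% of all probe sets passed, 3239 of them lower and 88 higher. The reference itself was 0.57 higher in stunted plants, and how far these calls follow that shift was not tested. Without this centring psbF and psbE changed by -0.39 each (limma adjusted p = 0.0768 and 0.0877), psaJ by -0.44 and psbB by -0.30, and none of them passed. Nothing is read from the calls with centring about the photosynthesis genes.

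Replicate arrays of 1 group differed in the same direction for most photosynthesis genes. Among the wild-type arrays replicate 3 was the lowest for 26 of 33 genes, or 78.8%, where it was lowest for 55.6% of the 36 other plastid genes and 31.9% of all probe sets. Variegated replicate 1 was the lowest of its group for 28 of 33, or 84.8%, against 94.4% of the other plastid genes and 33.2% of all probe sets. Stunted replicate 1 was the lowest for 29 of 33, or 87.9%, against 77.8% of the other plastid genes and 37.5% of all probe sets. Stunted replicate 3 was the highest for 27, or 81.8%, against 80.6% and 31.6%. The order of the mutant arrays was thus shared with the rest of the plastid genes. The 4 genes for which stunted replicate 1 was the highest were psbE, psbF, psbL and psbJ, which are all 4 genes of the psbE unit. Stunted replicate 1 lay below every wild-type array for 12 of 33 genes, where it did so for 26.8% of all probe sets. Stunted replicates 2 and 3 both lay above every wild-type array for 17 of 33, where 18.6% of all probe sets did so. Both held for psbA, psbC, psaB, rbcL, petL and petB, or 6 of 33, where 1.36% of all probe sets did both. Some of the other plastid genes, such as rpl33 and ndhE, did both as well. Over the whole array, correlations within a group were 0.9855 to 0.9946, so no pair of arrays was identical.

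Quality controls moved along with some of these arrays. The 25S rRNA control probe set read 4.25, 4.19 and 6.44 in wild type, 4.49, 4.97 and 8.66 in variegated and 4.50, 8.99 and 8.58 in stunted plants (exact permutation p = 0.2 for stunted and 0.5 for variegated against wild type, where 0.1 is the smallest possible). Stunted replicates 2 and 3, high in photosynthesis transcripts, were high in this control, but wild-type replicate 3, the low array of its group, was also the high one in the control. The actin 3' minus 5' signal was 1.11, 1.11 and 1.56 in wild type, 0.95, 1.05 and 1.45 in variegated and 1.42, 1.59 and 1.95 in stunted plants (exact permutation p = 0.2 and 0.5). With either control as a covariate 0 of 33 genes passed. In stunted against wild type 7.17% (25S rRNA) and 6.21% (actin) of all probe sets passed in these fits. There atpA changed by 1.01 (limma adjusted p = 0.0977) and by 1.05 (adjusted p = 0.112). Other genes moved more: psbZ, at 0.63 without a covariate, changed by 0.25 and 0.16, psbE by -0.24 and -0.24, and psbF by -0.30 and -0.24. The median stunted change of the 33 genes was 0.12 and 0.10 against wild type, and 0.11 and -0.02 against variegated plants. Beyond these fits, the part of RNA quality in the results was not tested.

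Leaving out stunted replicate 1 changed the stunted comparison most of the 9 single omissions. Without it 9 of 33 genes passed against wild type, or 27.3%, where 13.0% of all probe sets did in that setting. The genes that rose were rbcL by 1.30 (SE 0.16, limma adjusted p = 0.00183), psbA by 1.61 (SE 0.27, adjusted p = 0.0066), psbZ by 0.97 (SE 0.17, adjusted p = 0.00806), psaB by 1.24 (SE 0.24, adjusted p = 0.0109), psbC by 0.98 (SE 0.22, adjusted p = 0.0194), atpA by 1.12 and atpF by 1.14. The genes that fell were psbE, by 0.50 on the log2 scale (adjusted p = 0.0218), and psbF, by 0.48 (adjusted p = 0.039). Against variegated plants psbA, psaB, psbZ and rbcL passed without that array, all higher, by 1.20 to 1.27 (limma adjusted p up to 0.0377), or 12.1% where 6.17% of all probe sets passed. These are values for 2 stunted arrays and do not replace the result over all 3. The omitted array was the lowest stunted one for 29 of 33 genes, so its omission alone raises their stunted means. It was the highest one for psbE and psbF, whose stunted means fall in the same way. The 2 arrays left read 8.99 and 8.58 in the 25S rRNA control, against 4.50 on the omitted array.

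The spread between replicates was itself uneven along the plastid transcription units. The SD within groups had a median of 0.44 over the 33 genes, from 0.11 for psbM to 1.19 for psbB, against 0.12 over all probe sets. It was 0.36 over the other plastid genes. By complex the median was 0.59 for photosystem I, 0.52 for photosystem II, 0.35 for ATP synthase and 0.24 for cytochrome b6f, and the single value of rbcL was 0.66. Along the psbB unit it stood at 1.19 for psbB, 0.90 for psbT, 0.56 for psbH, 0.30 for petB and 0.18 for petD, the last of which is dim. Along the psbD unit it was 0.96, 0.60 and 0.40 for psbD, psbC and psbZ, and for psaA and psaB it was 0.89 and 0.59. Among the photosynthesis genes of these 3 units the one transcribed first varied most between replicates and the last one least. The pair psaI and petA, at 0.46 and 0.18, had the same order, and so did atpH, atpF and atpA, at 0.59, 0.46 and 0.38, behind the dim atpI at 0.32. The values of atpB and atpE, at 0.15 and 0.13, were nearly level in that order. The psbE unit stayed at 0.13 to 0.19 with its last gene the highest, the petL unit stood at 0.47, 0.13 and 0.44 for petL, petG and psaJ, and psbK was below psbI at 0.35 and 0.52. These orders are a description of 9 arrays, and signal level also differs along the units.

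**Figure D5:**
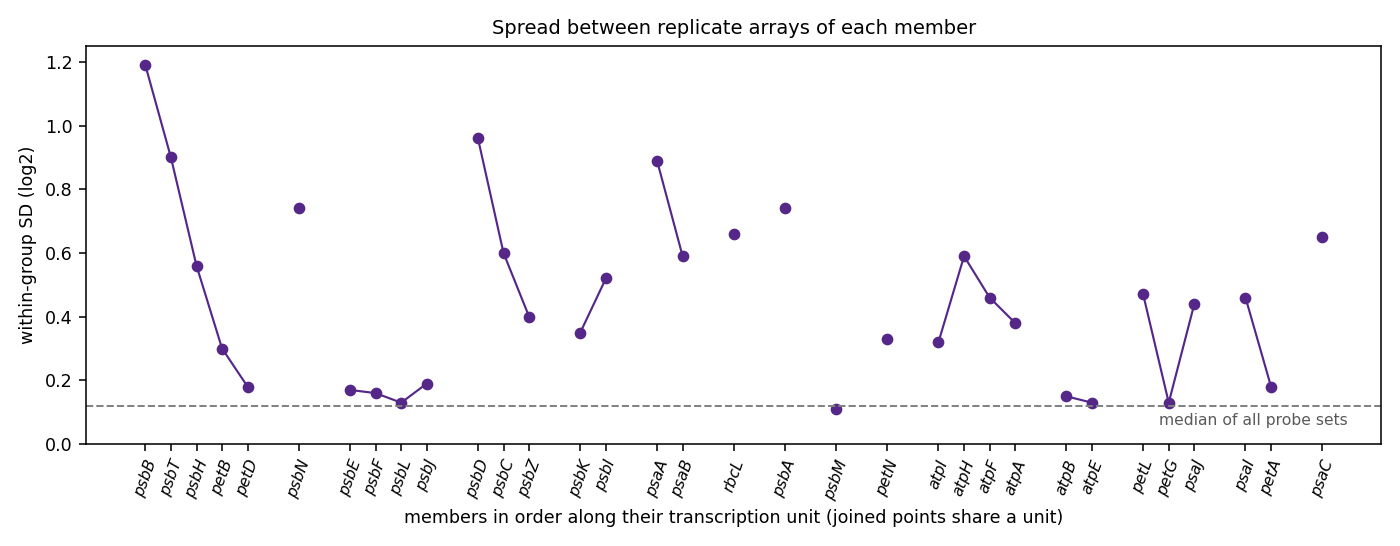
SD within groups (log2) of each of the 33 genes, in the order of transcription, with genes of 1 unit joined; the dashed line is the median of all probe sets at 0.12. The lines fall along the psbB, psbD, psaA and psaI units and stay low in the psbE and atpB units.

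Nuclear partners of these complexes had little coverage here. Listed were 41 nuclear subunits and electron carriers, some under names that match no single gene. Of these, 7 have a probe set that lists them as its 1 gene: PSAN, PSBW, PSBY, PSB27, ATPC1, ATPC2 and RCA. None passed in limma in any comparison, where 9.66% of all probe sets passed in stunted against wild type. In that comparison 2 had an unadjusted p under 0.05, as did 22.5% of all probe sets. In the others 0 did, where 11.6% (variegated against wild type) and 15.4% (stunted against variegated) of all probe sets did. In stunted plants 3 of the 7 were above wild type with a median change of -0.04, and in variegated plants 4 of 7 with a median of 0.05. RCA read 12.52, 12.73 and 12.85 in wild type and 12.88, 13.02 and 12.94 in stunted plants (change 0.24, SE 0.09, adjusted p = 0.138). ATPC1, for the gamma subunit that joins head and ring of the ATP synthase, changed by 0.00 in stunted plants (SE 0.08), beside the 1.00 of atpA. The difference between nuclear and plastid subunits was not tested.

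Nuclear factors for these plastid transcripts and proteins were followed where a probe set lists them as its 1 gene. This held for 1 of 20 genes listed as maturation and translation factors and 7 of 32 listed as assembly factors. It held for 0 of 16 listed as sigma factors and polymerase-associated proteins. Among the 20, the name PDE332 points to the same locus as ATPD, so that entry is an ATP synthase subunit. ATAB2, which is needed for translation of photosystem mRNAs, read 7.29, 7.40 and 7.32 in wild type, 7.71, 7.61 and 7.66 in variegated and 7.67, 7.72 and 7.73 in stunted plants. Both mutants lay above all wild-type arrays. ATAB2 rose by 0.37 in stunted plants (SE 0.06, limma adjusted p = 0.008) and passed in all 20 alternative settings, while the variegated change of 0.32 missed the threshold (SE 0.06, adjusted p = 0.0743). LPA1, a membrane protein for assembly of photosystem II, read 5.12 ± 0.22 in wild type, 5.26 ± 0.23 in variegated and 5.80 ± 0.25 in stunted plants (SD, n = 3), with all stunted arrays above all others. LPA1 rose by 0.68 in stunted plants (SE 0.16, adjusted p = 0.0314), and it passed in 12 of 20 alternatives. Omitting wild-type replicate 1 or 2, variegated replicate 2, or either of stunted replicates 2 and 3 ended its call (highest adjusted p = 0.109). The other 6 genes followed from the assembly list did not pass. Thus 1 of 7 passed in stunted against wild type, where 9.66% of all probe sets did. All 3 stunted arrays lay above wild type for 11.9% of all probe sets, and all 3 variegated arrays for 9.36%. With so few factors followed, nothing is read from these counts about the lists.

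Markers of other tissues were sparse too. Of 8 root markers 2 have a probe set of 1 gene. PYK10, a beta-glucosidase known from roots and hypocotyls, rose by 1.50 in stunted plants (limma adjusted p = 0.000875), while EXPA7 changed by 0.01. The mean of both markers was 3.36 to 3.61 in wild type, 3.42 to 3.58 in variegated and 4.19 to 4.38 in stunted plants. EXPA7 read 2.71 to 3.22 over all arrays, below every array median, so the rise of this mean is that of PYK10. Of 8 markers of senescent leaves 2 have such a probe set, and neither passed, with SAG29 at -1.11 (limma adjusted p = 0.127) and WRKY53 at 0.01. Their mean was 3.93 to 4.70 in wild type, 3.93 to 4.22 in variegated and 3.56 to 3.98 in stunted plants. WRKY53 read 2.83 to 3.22 over all arrays, also below every array median, so this mean mostly moved with SAG29. The part of tissue composition in the photosynthesis transcripts was not tested.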

How the data were processed

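The deposited table holds log2 expression values for 22810 probe sets on 9 arrays. Per the submitters' processing notes, RMA and the affy package were used; versions and the background step are not given in the sources used here. RMA sets arrays to nearly 1 distribution, so a shift shared by most transcripts is lost. An array has no sequencing depth; precision is set by the number of arrays.

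After 64 control probe sets were set aside, limma 3.58.1 (R 4.3.3) was fitted to 22746 probe sets with 1 mean per group over all 9 arrays and empirical Bayes moderation, after a test on simulated data. Tests were two-sided, and p-values were adjusted by Benjamini-Hochberg within each of 3 comparisons. Complex means are means over genes on each array. Single quality values were compared with exact permutation tests. P-values measure the spread between these samples, which the labels call biological replicates.

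The genes and lists were chosen with earlier results of these data known. Array values are given for psbA, rbcL, each gene that passed, and in each complex the brightest gene and the one with the largest change in each comparison; other genes given in full were chosen after their values were seen. Genes were named from the platform's annotation and RefSeq (TAIR10.1). No sequences were used here. Alternatives covered the fit, moderation, scaling, dim probe sets (the dimmest 30%), quality covariates and single arrays.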

Additional observations from a re-analysis of the deposited data

How the results depend on the processing

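For variegated against wild type 0 of 33 genes passed in every alternative run, where 0.0044% (no moderation) to 1.53% (array weights) of all probe sets did. For stunted against wild type the count of 1 became 0 with the 2 groups fitted alone, without moderation, and with the 25S or actin covariate. Of all probe sets 5.81%, 3.5%, 7.17% and 6.21% passed in these settings, in that order. The count became 2 with an intensity trend (psbF and atpA) and 3 with array weights (psbF, psbE and atpA). It became 4 with centring on the other plastid genes (added after the data were seen). These are 6.06%, 9.09% and 12.1%, where 9.4%, 12.9% and 14.6% of all probe sets passed. The count ranged from 0 to 9 over the omissions of 1 array: 0 without wild-type replicate 2, variegated replicate 1 or 3, or stunted replicate 2 or 3, 9 without stunted replicate 1, and 1 otherwise. Of all probe sets 5.46% (without stunted replicate 2) to 13.0% (without stunted replicate 1) passed over these omissions. For stunted against variegated the count of 0 became 1 with array weights (psbZ, limma adjusted p = 0.046, where 4.52% of all probe sets passed). It ranged from 0 to 4 over the omissions, with 4 without stunted replicate 1. Of all probe sets 0.211% (without variegated replicate 1) to 6.17% (without stunted replicate 1) passed over them. Omissions pool the spread over the groups. The cause of these moves was not tested. Differences of complex means moved by less than 1 SD under the scaling, averaging, dim probe set and omission alternatives. Relative to the other plastid genes, which were 0.57 higher in stunted plants, those of photosystem II, cytochrome b6f and ATP synthase moved by more, to -0.41, -0.38 and -0.10. Of 99 gene changes, 47 kept their sign in all 20 alternatives and 52, none of them called before or after, changed sign in at least 1. Each gene has 1 probe set, so averaging probe sets was not run separately.

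With the replicate block, 1 gene passed in stunted against wild type (psbE, -0.39, adjusted p = 0.0372, with atpA at 0.0552), and 1 in stunted against variegated (psbZ, 0.90, adjusted p = 0.0404), or 3.03% each, where 12.7% and 4.13% of all probe sets passed. The main fit called 9.66% and 1.74% of all probe sets in these comparisons, fewer than with the block. Deviations of same-numbered arrays correlated from 0.00445 to 0.281, all positive, and those of differently numbered arrays from -0.28 to 0.101. Not every array correlated best with its own number, and the labels state no pairing, so the main fit did not pair the arrays. Whether the numbers mark a shared step was not tested.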
